A study of Mus musculus with 28 samples.

Results

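Intergenic H3K27me3 peaks are stretches of DNA outside the genes of the authors' annotation where the histone mark H3K27me3 was enriched in mouse hair follicle stem cells. They were taken as the peaks on chromosomes 1 to 19 that the authors annotated as distal intergenic and that were narrower than 10000 bp. That gave 32360 of the 67985 H3K27me3 peaks, or 47.6%, covering 52.7 of the 183 Mb under all peaks. Of 33204 intergenic peaks, 77 lay off these chromosomes and 767 were at least 10 kb wide. The series profiled cells of young mice, 6 months old, and old mice, 24 months old, of the strain labelled 132-C67BL/6J, with no transgene or treatment named. The cells were released from skin with trypsin and sorted by flow cytometry for CD34 and α6 integrin. H3K27me3 was measured by ChIP-seq (immunoprecipitation of marked chromatin and sequencing) in 3 young and 3 old samples, and H3K4me3 and RNA polymerase II (Pol2) in 2 and 2 each. Open chromatin was measured by ATAC-seq in 4 young and 4 old samples and RNA in 3 and 3.

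H3K27me3 is set by Polycomb repressive complex 2 and marks genes held silent, above all developmental regulators whose promoters are rich in CpG dinucleotides. Between genes the mark lies in small islands, around broad Polycomb domains and around distal elements that other tissues use. Hair follicle stem cells live in the bulge of the follicle and keep the regulators of other lineages silent, partly through Polycomb.

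The peaks' own sequence could be read only where a RefSeq transcription start window (build GRCm38.p6) lay inside them, which was so for 449 windows in 384 peaks. All but 16 of these windows, 433, belong to predicted or clone-named transcripts. The 5 shown are the 250 bases upstream of a start inside peaks that changed with age, with CpG dinucleotides in capitals, written 5′ to 3′ on the transcript's strand. The first is at chr14:100285473-100285722 on the plus strand, inside the peak with the lowest FDR among those lower in old cells.
Gm41231: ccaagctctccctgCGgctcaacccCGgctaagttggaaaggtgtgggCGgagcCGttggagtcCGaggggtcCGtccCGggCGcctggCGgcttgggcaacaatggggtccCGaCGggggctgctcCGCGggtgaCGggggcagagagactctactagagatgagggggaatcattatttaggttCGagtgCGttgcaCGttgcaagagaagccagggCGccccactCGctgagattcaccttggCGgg
The next lies at chr17:23538674-23538923 on the minus strand, in a lower peak listed beside Casp16-ps.
Gm41543: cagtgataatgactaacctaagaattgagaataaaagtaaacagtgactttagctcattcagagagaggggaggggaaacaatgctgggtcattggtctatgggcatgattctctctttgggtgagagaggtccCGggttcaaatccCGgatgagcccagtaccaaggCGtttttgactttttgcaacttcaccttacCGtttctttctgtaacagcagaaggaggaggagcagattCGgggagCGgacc
The Fat3 window, at chr9:16502055-16502304 on the minus strand, is the only one in a changed peak that belongs to no predicted or clone-named transcript, and Fat3 encodes an atypical cadherin.
Fat3: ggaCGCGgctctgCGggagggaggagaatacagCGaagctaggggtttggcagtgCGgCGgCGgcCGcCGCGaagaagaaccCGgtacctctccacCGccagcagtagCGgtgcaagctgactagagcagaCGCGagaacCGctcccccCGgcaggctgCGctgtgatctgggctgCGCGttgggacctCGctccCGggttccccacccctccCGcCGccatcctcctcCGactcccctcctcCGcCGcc
A pair from peaks that were higher in old cells follows, at chr11:94761183-94761432 and at chr8:10882455-10882704, both on the minus strand.
Gm11545: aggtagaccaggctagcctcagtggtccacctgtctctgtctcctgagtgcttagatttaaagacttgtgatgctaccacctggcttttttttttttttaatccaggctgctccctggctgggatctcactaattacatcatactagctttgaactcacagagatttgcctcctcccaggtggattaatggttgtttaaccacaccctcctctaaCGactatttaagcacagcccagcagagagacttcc
B930025P03Rik: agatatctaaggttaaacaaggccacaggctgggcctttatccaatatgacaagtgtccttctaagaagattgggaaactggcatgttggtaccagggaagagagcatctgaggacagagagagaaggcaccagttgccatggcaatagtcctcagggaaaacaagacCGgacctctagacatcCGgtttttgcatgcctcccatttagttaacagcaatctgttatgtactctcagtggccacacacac
The windows in lower peaks held 20 CpGs (Gm41231), 6 (Gm41543) and 27 (Fat3), and those in higher peaks 1 (Gm11545) and 2 (B930025P03Rik). By FDR of the peak, the Gm14009 window, with 2 CpGs, would have come before Fat3 among the lower ones. Of all 32851 RefSeq windows, 17.9% held at least as many CpGs as Gm41231 and 8.56% as many as Fat3. The median was 5 CpGs over the 19 windows in lower peaks, 2 over the 16 in higher peaks, 3 over all 449 and 6 over the whole RefSeq table. The difference between lower and higher peaks was not tested, and the 35 windows are few. The 19 windows lie in 18 lower peaks and the 16 in 13 higher peaks, so not all are independent.

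H3K4me3 marked the genes that define hair follicle stem cells. All 10 stem cell markers looked at (Cd34, Itga6, Krt15, Krt5, Krt14, Lhx2, Sox9, Tcf7l2, Nfatc1 and Lgr5) had an H3K4me3 promoter peak, with levels from 12.19 to 16.38 in young and from 10.66 to 14.81 in old cells. None of 5 immune markers had one, whereas 2 of 4 melanocyte markers, 3 of 4 of fibroblasts, 1 of 3 of endothelium and 2 of 3 of differentiated interfollicular epidermis did, at 7.58 to 11.25 in young cells. The part of other cell types in the differences below was not tested. The ChIP-seq tables give 1 mean per age, so no spread between samples can be shown, and depth is unknown for those libraries. Levels are the log2 of the authors' mean normalized read count over the peak, differences are old minus young on that scale, and a peak is called lower or higher where the authors' false discovery rate (FDR) from DiffBind is under 0.05.

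More intergenic peaks were called higher than lower with age, on the authors' normalization. In the authors' deposited table, 737 of the 32360 peaks (2.28%) were called higher in old cells and 394 (1.22%) lower, against 2.66% higher and 2.60% lower of all 67985 peaks. Higher calls thus outnumbered lower ones, which were about even in the whole table, and both shares were below those of the whole table. The median level was 5.58 in young and 5.75 in old cells. The median difference in the authors' deposited table was 0.14 (quartiles −0.26 and 0.58), with 59.3% of peaks above 0, beside a median of 0.12 over all peaks. The normalization setting behind these values is not stated, and it fixes where a difference of 0 lies, so the split into higher and lower calls, the medians and the shares above 0 all depend on it. Relative to the median of all peaks in the authors' deposited table, 51.2% of the intergenic peaks were higher. Fewer cells carrying the mark and less mark per cell cannot be told apart in bulk samples.

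**Figure D1:**
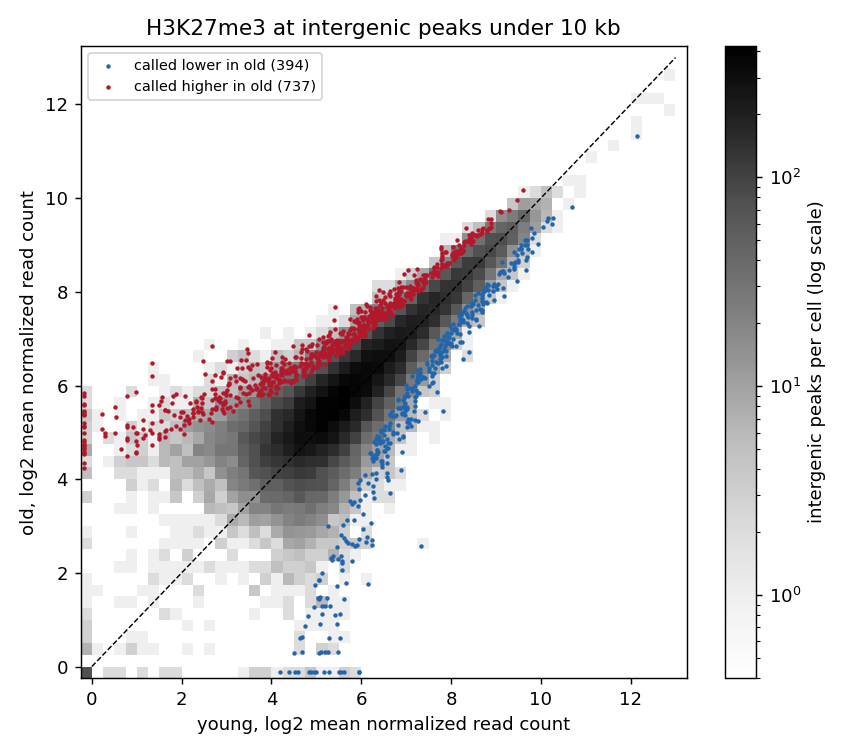
Mean H3K27me3 level in old against young cells, both as log2 mean normalized read count, for 32360 intergenic peaks under 10 kb. Grey cells count peaks on a log scale, blue points are the 394 peaks called lower and red points the 737 called higher, and the dashed line marks equal levels. At low levels only large differences were called, and points along the left and bottom edges sit at the table's lowest level.

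Other classes of H3K27me3 peak split differently. Promoter peaks of the same width limit, taken as those annotated to a promoter, had 541 lower (4.51%) and 369 higher calls (3.08%) of 11995, with a median difference of 0.05 in the authors' deposited table. Peaks in introns and exons resembled the intergenic ones, with 286 lower, 536 higher and a median of 0.17 over 18400 in the authors' deposited table. The 767 wider intergenic peaks had 93 lower (12.1%) and 20 higher calls and a median of −0.04 in the authors' deposited table. Neighbouring peaks are not independent, so these differences between classes were not tested. The classes also differed in level, with a median mean level of 10.16 for the wider intergenic peaks and 6.21 for promoter peaks. It was 5.68 for intron and exon peaks and 5.66 for the intergenic peaks under 10 kb. Shares called depend on the reads counted, so they do not rank the classes by size of change. At the width limit itself, the last peak inside (9988 bp, beside Blk) differed by 0.04 and the first outside (10006 bp, beside Ubl7) by 0.32 in the authors' deposited table.

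**Figure D2:**
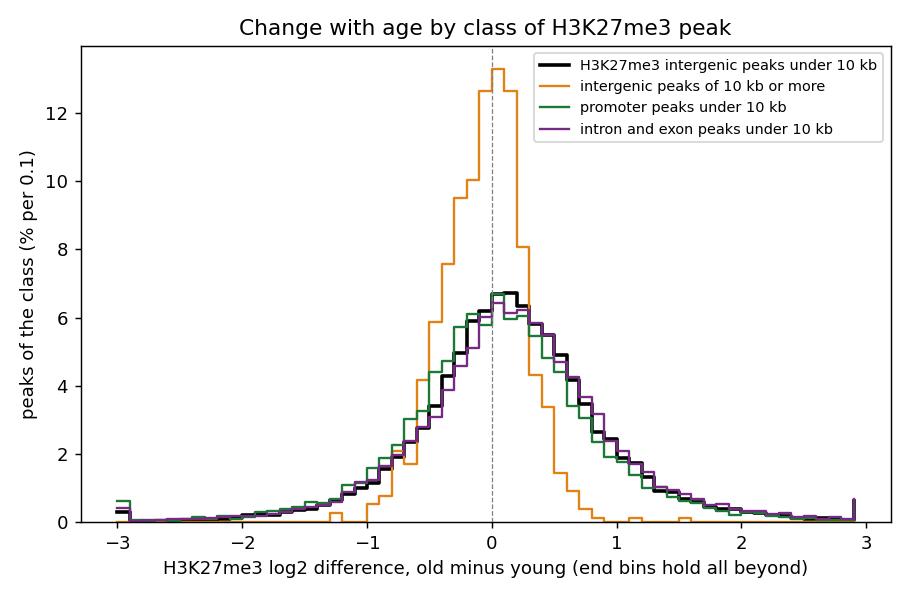
Percent of peaks per bin of 0.1 in the H3K27me3 log2 difference, old minus young, for 4 classes of peak. The intergenic peaks under 10 kb (black) lie to the right of 0 with a median of 0.14, and the wider ones (orange) form a narrow peak around −0.04.

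The balance of gains and losses changed with distance from genes. Among peaks whose listed start was 3 to 10 kb away, 195 of 7128 were called higher (2.74%) and 73 lower (1.02%). The share of higher calls was 2.56% at 10 to 50 kb, 1.68% at 50 to 100 kb, 1.16% at 100 to 200 kb and 0.732% at 200 kb or more. Lower calls went the other way, at 1.18%, 1.25%, 1.72% and 1.57%. The farthest bin therefore held 15 lower and 7 higher calls among 956 peaks, the reverse of the nearest one. Calls in that bin are few, neighbouring peaks are not independent, and the change with distance was not tested. The median difference in the authors' deposited table went along the same bins from 0.19 through 0.17, 0.09 and 0.04 to 0.02. Median levels differed little, from 5.69 in the nearest to 5.37 in the farthest bin, and median widths from 1091 to 917.5 bp.

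Width went with the number of calls in both directions. Of peaks under 500 bp, 0.507% were called lower and 0.993% higher, and of those of 5 kb or more, 3.93% and 4.28%. The widest bin also had the smallest median difference, 0.04 in the authors' deposited table against 0.16 in the narrowest. The median mean level was 4.43 in the narrowest and 8.74 in the widest bin. More peaks were called where more reads were counted, so the shares by width do not rank the sizes of change.

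**Figure D3:**
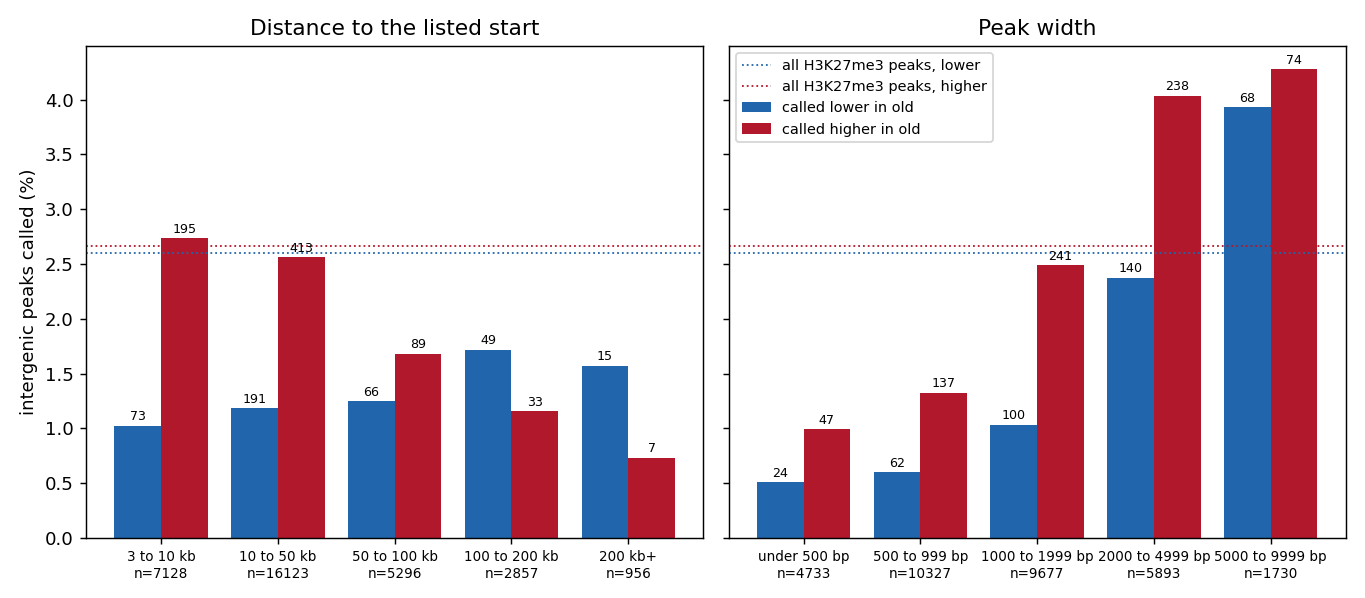
Percent of intergenic peaks called lower (blue) and higher (red) in old cells by distance to the listed transcription start and by peak width, with the number called above each bar. Dotted lines give the share of all H3K27me3 peaks called in each direction, 2.60% lower and 2.66% higher. Higher calls decline with distance while lower calls do not, and both increase with width.

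The counts of calls also varied between chromosomes. Chromosome 5 had 75 higher and 10 lower calls among 2305 peaks. Chromosome 3, with 13 higher and 20 lower of 1050, chromosome 10 (15 and 24 of 1301), chromosome 16 (11 and 13 of 942) and chromosome 18 (12 and 20 of 1050) had more lower than higher calls. Chromosome 3 was the only one with a median difference under 0, at −0.03 in the authors' deposited table. Several of these counts are small, neighbouring peaks are not independent, and the differences between chromosomes were not tested.

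The losses with the lowest FDR were mostly in peaks of several kb with a high level. In what follows a peak is named by the gene whose start the authors list as nearest, which need not be a gene it acts on. The peak beside Gm16260, at chr14:100284297-100288310 and 64.8 kb from the listed start, went from 8.27 in young to 6.57 in old cells (−1.70, FDR 7.94e-07 in the authors' deposited table). It is the peak that holds the CpG-dense Gm41231 window printed above. Of a pair of H3K4me3 peaks that overlap it, the stronger went from 11.28 to 9.85 (FDR 5.16e-06 in the authors' deposited table), as 79.1% of all H3K4me3 peaks were called lower. The weaker was at 5.78 and 5.74 (FDR 0.966 in the authors' deposited table). Beside Sipa1l2, a gene for a GTPase-activating protein of Rap, the level went from 8.41 to 6.72 (−1.69, FDR 1.2e-06 in the authors' deposited table). Beside Nkx6-3, a homeobox factor of the stomach, a 946 bp peak dropped from 6.15 to 1.77 (−4.38, FDR 1.6e-06 in the authors' deposited table). That peak lies 0.235 kb from an H3K27me3 peak of 10 kb or more, while those beside Gm16260 and Sipa1l2 have none within 200 kb.

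The remaining top losses were beside Gm22371 (8.56 to 7.39), Gm12506 (7.20 to 5.27), Gm765 (9.16 to 8.09), Casp16-ps (9.94 to 9.02) and Cycs-ps2 (7.26 to 5.24), with FDRs up to 4.01e-06 in the authors' deposited table. All 5 are listed by predicted genes or pseudogenes. The largest drops among peaks above the lowest level in both ages went from near 5 to near 0. They were beside Gm42678 (5.48 to 0.31), Gm11809 (5.27 to 0.30), the autophagy gene Nrbf2 (5.53 to 0.60) and Plg, the gene for plasminogen (5.20 to 0.30), with differences from −5.18 to −4.90 in the authors' deposited table. Their widths were 720 to 941 bp.

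The gains with the lowest FDR included narrow peaks with little signal in young cells. Beside Ssmem1 a 659 bp peak went from 1.35 to 6.49 (5.14, FDR 3.54e-09 in the authors' deposited table), and all 3 intergenic peaks listed at Ssmem1 were called higher. Beside Cap2, which encodes an actin-binding cyclase-associated protein, the level went from 3.46 to 6.79 (3.33, FDR 1.7e-07 in the authors' deposited table). Beside Syndig1l it went from 5.42 to 7.67 (2.26, FDR 2.12e-07 in the authors' deposited table). Peaks beside Gm24208 (1.35 to 6.20) and Gm22203 (0.99 to 5.87) also came from low levels.

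Not every gain started low. The 6760 bp peak beside Gm14453 went from 7.77 to 8.96, that beside Znrf4, a ubiquitin ligase gene, from 5.39 to 7.40, and that beside P2ry6, a nucleotide receptor gene, from 6.95 to 8.39, with FDRs up to 3.76e-06 in the authors' deposited table. Apart from Ssmem1, the largest differences were beside Gal, the gene of the neuropeptide galanin (0.22 to 5.39), Nup210, a nuclear pore gene (0.52 to 5.54), and Kcnk1, a potassium channel gene (0.78 to 5.78), between 5.00 and 5.17 in the authors' deposited table. Without the called peaks that fell to or rose from the table's lowest level, the median difference was 1.45 for higher and −1.26 for lower ones in the authors' deposited table. The table's lowest level, which stands for no measured count and allows no fold, was that of 24 of the 737 in young and of 15 of the 394 in old cells.

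Some stretches of chromosome held several calls of 1 direction. Of 1641 windows of 1 Mb with an intergenic peak, 615 had a called one, of which 351 had a single call and 264 at least 2. In 207 of the 264 all calls had the same sign. Windows held up to 148 intergenic peaks (median 12) and 65.2% of all called peaks were higher, and the number of such windows that these alone would give was not computed. Of 26 windows with 3 or more losses, 4 also had a gain, and of 76 with 3 or more gains, 4 also had a loss. Peaks in 1 window share their surroundings and may share reads of 1 broad signal, so they are no independent replicates.

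The window with most losses, chromosome 6 from 98 to 99 Mb, had 7 lower and 0 higher calls among 71 peaks. Its peaks are listed at Gm765, at Mitf, the master regulator of melanocytes, and at Foxp1, a forkhead factor. The 7 differences ran from −1.68 to −0.86 in the authors' deposited table, and 53 of the 71 peaks were below 0. Mitf itself had an H3K4me3 promoter peak at 11.25 in young and 10.01 in old cells. Chromosome 15 from 7 to 8 Mb, with Egflam and the neurotrophic factor gene Gdnf, had 5 lower of 46. Chromosome 4 from 120 to 121 Mb, with Cited4, Foxo6os and the endothelin gene Edn2, had 5 of 25, and neither had a gain. On chromosome 17 from 49 to 50 Mb, 6 of 65 were lower and 1 was higher.

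The windows with most gains held 8 or 9 of them each. On chromosome 17 from 27 to 28 Mb, around Mir7218, Grm4 and Ip6k3, 9 of 24 peaks were called higher and 22 were above 0. On chromosome 6 from 90 to 91 Mb, around Nup210 and Iqsec1, 9 of 47 were higher, all between chr6:90820590 and 90977732. On chromosome 4, 9 of 113 were higher from 125 to 126 Mb, around the glutamate receptor gene Grik3, and 8 of 43 from 140 to 141 Mb, around Igsf21. None of these 4 windows had a loss, and their median differences were 0.51 to 0.90 in the authors' deposited table.

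**Figure D4:**
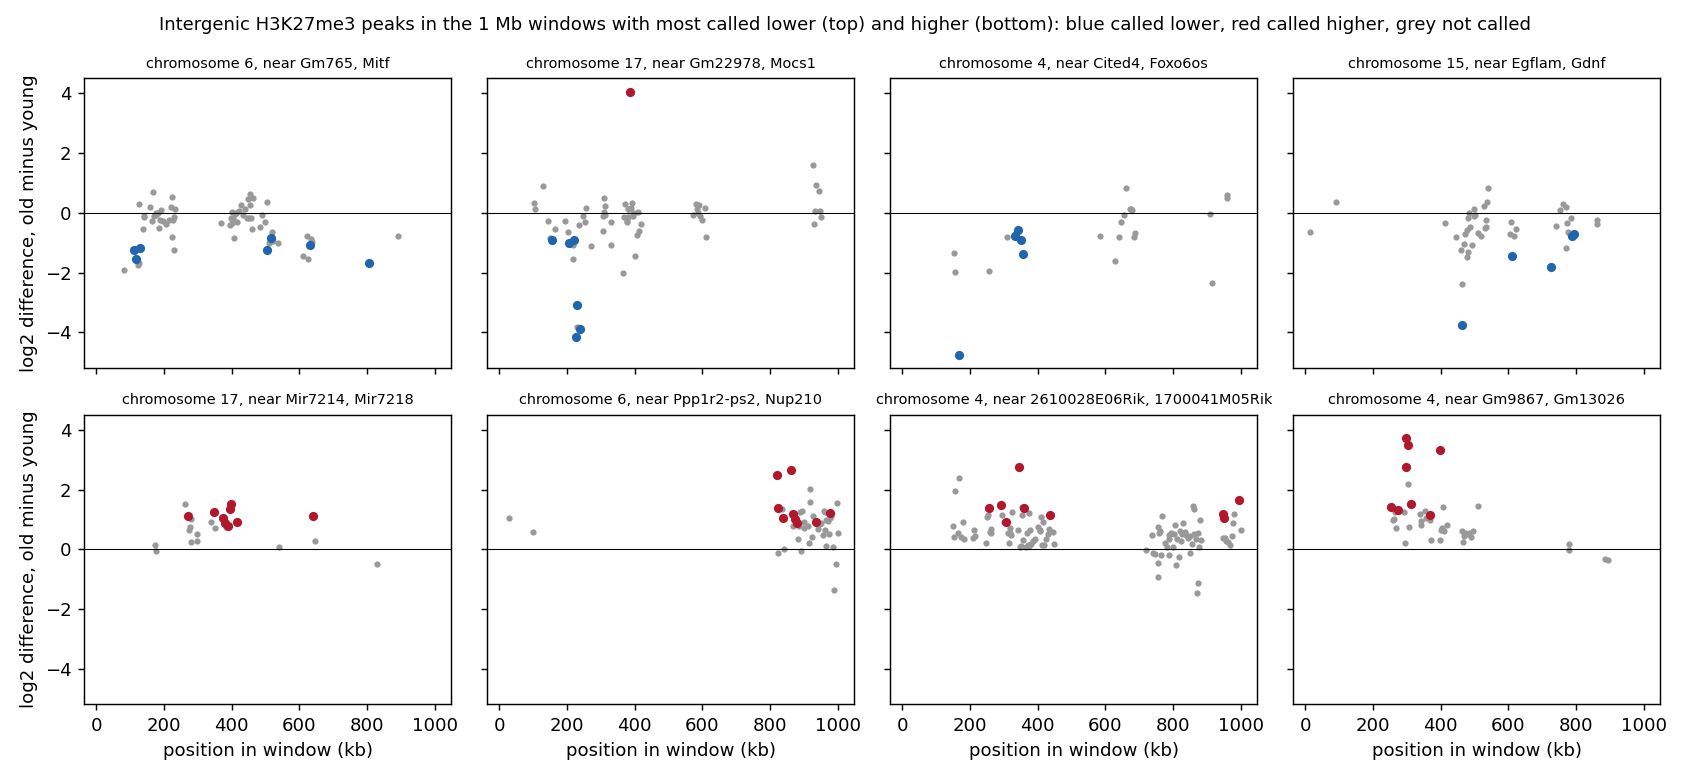
H3K27me3 log2 difference, old minus young, against position in kb for every intergenic peak in the 4 windows of 1 Mb with most losses (top) and the 4 with most gains (bottom). Blue points were called lower, red higher and grey neither. In the lower row most grey points also lie above 0, as in the chromosome 17 window with 22 of 24 peaks above it.

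Peaks listed at regulators of development had few calls in either direction. Of all intergenic peaks 1.22% were called lower and 2.28% higher, and the calls below are too few to be told from these shares. For the Fox, Sox, Pax, T-box, Gata and Zic factors, 3 of 108 peaks fell (2.78%) and 1 rose (0.926%). Their median difference was −0.15 in the authors' deposited table, with 38.0% of peaks above 0. The peak beside Foxi1, a forkhead factor of ion-transporting cells, fell from 6.29 to 3.59 (FDR 0.000155 in the authors' deposited table). That beside Foxi3, a forkhead factor of hair and tooth placodes, rose from 7.09 to 7.97 (FDR 0.0148 in the authors' deposited table). Of 367 peaks at homeobox factors 4 fell (1.09%) and 3 rose (0.817%), with a median of 0.04 in the authors' deposited table. The rise with the lowest FDR was beside Zfhx3, at 231.7 kb (5.31 to 7.14), a gene with 83 intergenic peaks of which no other was called.

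Of 128 peaks at Wnt, BMP, FGF and Hedgehog ligands and their antagonists, 1 fell and 2 rose, with a median of −0.03 in the authors' deposited table. The peak that fell was beside Wnt5a (7.73 to 6.80) and the rise with the lower FDR was beside Wnt11 (3.07 to 6.17). Both encode Wnt ligands that act largely without β-catenin. Among 43 peaks at genes of hair follicle stem cell identity, 1 fell and 2 rose, with a median of −0.10 in the authors' deposited table. The loss was beside Id2, an inhibitor of helix-loop-helix factors (9.51 to 8.92, FDR 0.0121 in the authors' deposited table). A gain lay 109.5 kb from Tcf7l2, a transcription factor of Wnt signalling, at 5.38 in old cells and at the table's lowest level in young ones.

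The other lists held calls in both directions, apart from cadherins and keratins. Of 243 peaks at immune genes 7 fell and 9 rose, with a median of 0.16 in the authors' deposited table, among them a loss beside Il12b (9.29 to 8.47) and a gain beside Il3 (3.35 to 6.38), both cytokine genes. Zinc finger genes named Zfp had 3 losses and 8 gains among 233 peaks (median 0.20 in the authors' deposited table), with a loss beside Zfp648 and a gain beside Zfp41. Olfactory and vomeronasal receptor genes had 3 and 2 of 159 (median 0.18 in the authors' deposited table), led by Olfr1423 (6.10 to 2.65) and Olfr30 (4.54 to 6.40). Synaptic adhesion and guidance genes had 2 and 1 of 97 (median 0.08 in the authors' deposited table), with the ephrin receptor genes Epha2 lower (10.28 to 9.58) and Ephb3 higher (4.71 to 6.46).

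Cadherins and protocadherins had 1 loss, beside Cdh26 (6.51 to 5.06), and 0 gains among 104 peaks, with 7 gains at an unadjusted DiffBind p under 0.05 and a median of 0.16 in the authors' deposited table. Keratin genes had 0 calls among 23 peaks, with 2 losses and 3 gains at an unadjusted DiffBind p under 0.05 and a median of 0.24 in the authors' deposited table. MicroRNA genes had 10 losses and 11 gains among 581, and predicted or clone-named genes 190 and 279 among 14129, both with a median of 0.11 in the authors' deposited table. For comparison, 1.22% of all the intergenic peaks were lower and 2.28% higher, so most of these lists hold too few calls to be told from the whole.

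Few intergenic H3K27me3 peaks overlapped an H3K4me3 peak or a listed ATAC-seq peak. Most calls among those were losses, as in other classes of peak. Only 217 (0.671%) overlapped an H3K4me3 peak by at least 1 bp, against 12.4% of promoter peaks and 0.484% of intron and exon peaks. Lower calls numbered 21 of these 217 (9.68%) and higher calls 1, at a median difference of −0.21 in the authors' deposited table, against 0.15 for those without H3K4me3. The 94 (0.290%) that overlapped a listed ATAC-seq peak had 10 lower calls, 1 higher call and a median of −0.175 in the authors' deposited table. Only ATAC-seq peaks that the authors selected for a difference between ages are listed, so the 94 are no count of intergenic peaks in open chromatin. Promoter peaks with H3K4me3 had 254 lower and 13 higher calls, and intron and exon peaks with H3K4me3 had 9 and 1. With an ATAC-seq peak the calls were 39 lower and 1 higher at promoters, and 9 and 0 in introns and exons. The overlapping intergenic peaks were also wider, with medians of 1315 bp (H3K4me3) and 2621.5 bp (ATAC-seq) against 1069 and 1068 bp for the rest. Both the only H3K4me3-marked and the only ATAC-marked peak called higher are listed at Tfap2c, a transcription factor gene of the epidermis, and they are different peaks, from 6.49 to 7.82 and from 8.88 to 9.46.

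H3K4me3 at these sites was mostly called lower in old cells, with some exceptions. Of 222 H3K4me3 peaks that overlapped intergenic H3K27me3 peaks 126 (56.8%) were called lower and 15 (6.76%) higher, against 79.1% and 0.281% of all 21390 H3K4me3 peaks. These 15 are among only 60 H3K4me3 peaks called higher in the authors' deposited table, and 11 of the 15 intergenic H3K27me3 peaks that hold them also touch a Pol2 peak. None of the 15 H3K27me3 peaks was itself called. Beside Cdkn1a, the gene of the cell cycle inhibitor p21, H3K4me3 went from 4.76 to 6.12 (FDR 0.0187 in the authors' deposited table) inside the peak at chr17:29101330-29109187, whose H3K27me3 levels were 9.05 in young and 9.46 in old cells. Cdkn1a was named after its values were seen. The 15 peaks were 0.66 to 3.75 higher for H3K4me3 in the authors' deposited table. The largest differences, beside Gm4866 and Atg16l1, started from −0.07 in young cells, where a fold is poorly defined. The median H3K27me3 level per kb (log2 of the mean count per 1000 bp) of the peaks that hold the 15 was 9.35, against 5.67 over all intergenic peaks. It ran from 3.11 to 12.2, so some held little H3K27me3. The 99th percentile over all intergenic peaks was 6.77, so the median of these peaks is an extreme level. Whether signal shared by several immunoprecipitations at such sites reflects the marks themselves was not tested. Several of the 15 lie near each other beside Gm5466 and are not independent.

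A few narrow intergenic peaks had very dense signal. The 5 intergenic peaks with the highest level were listed beside Gm28502 (12.97 in young and 12.59 in old cells), Gm11668 (12.81 and 11.97), Vmn1r-ps151 (12.51 and 12.10), Gm5466 (12.44 and 12.00) and Tmem125 (12.11 and 12.15). They were 452 to 2288 bp wide, with levels per kb of 11.1 to 13.6, and none was called. Peaks beside Gm28502, Vmn1r-ps151 and Gm5466 also overlapped both an H3K4me3 and a Pol2 peak, at H3K4me3 levels of 10.21 to 12.33 and Pol2 levels of 10.02 to 11.68. Whether such shared dense signal reflects the marks themselves was not tested. A limit of 9 per kb, chosen after the values were seen, took in 28 intergenic peaks, of which 27 were below 0 and 7 called lower. Their median difference was −0.58 in the authors' deposited table, against 0.14 for all others. A 248 bp peak beside Mir6356 belonged to them (11.3 per kb), and fell from 9.68 to 8.68 (FDR 5.53e-06 in the authors' deposited table).

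Most intergenic peaks that touched Pol2 had little H3K27me3, although the dense peaks beside Gm28502, Vmn1r-ps151 and Gm5466 are among them. The 59 intergenic peaks that overlapped a Pol2 peak had a median level of 2.08, against 5.66 for the rest, and a median width of 455 bp. Of these, 34 had a mean level under 3, as did only 210 of the 32360, and 10 were at the lowest level in both ages, out of 75 such peaks. DiffBind called 0 of the 59, and 8 had an unadjusted p under 0.05. H3K4me3 and Pol2 peaks both overlapped 46 of the intergenic peaks, at a median H3K27me3 level per kb of 3.20.

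Unscaled counts of ATAC-seq peaks that overlapped intergenic H3K27me3 peaks were mostly lower in old cells, in a share near that of all listed ATAC-seq peaks. The deposited ATAC-seq table lists 7849 peaks that the authors selected for a difference between ages. Library totals over listed peaks ran from 2456110 to 2773284 in young and from 1572998 to 1946804 in old cells. The 94 peaks inside intergenic H3K27me3 peaks held 0.959% to 1.04% of the counts of each library. Mean counts were lower in old cells for 79 of the 94 (84.0%, against 85.9% of all listed peaks). With TMM scaling 57 of the 94 had a fold change below 0 (60.6%, against 60.4% of all listed peaks), so that 22 of the 79 turned to a positive sign. In 27 peaks, by unscaled counts, all 4 old libraries were below all 4 young ones, and in 5 all were above. The same shares over all listed peaks were not computed. As the listed peaks were selected for a difference between these libraries, the 27 and 5 describe no trait of the overlapping peaks.

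How many of these were called depended on the scaling. With TMM scaling, edgeR's quasi-likelihood test called 0 lower and 15 higher, against 0.701% and 13.9% of all listed peaks, with 4 lower at an unadjusted p under 0.05. DESeq2 called 3 lower. Without scaling, edgeR called 33 lower and 4 higher, against 46.4% and 5.43% of all listed peaks. TMM moved the median log2 fold change of all listed peaks by 0.587 relative to no scaling. TMM takes most peaks as unchanged, while all listed peaks were selected for a difference and 85.9% had lower mean counts in old cells. The calls with TMM therefore cannot tell whether counts at these sites fell. Since the table was selected on the same libraries, neither count describes open chromatin at large.

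The ATAC-seq peak beside Pcsk6, a proprotein convertase gene, had 375, 445, 572 and 547 counts in the young and 176, 165, 261 and 191 in the old libraries. The groups did not overlap, at 484.75 ± 91.5 against 198.25 ± 43.2 (mean ± SD, n = 4 each). Its log2 fold change was −1.29 without scaling (edgeR adjusted p 0.00459) and −0.68 with TMM (edgeR adjusted p 0.0513). This ATAC-seq peak spans chr7:65855401-65856050, while the H3K27me3 peak it touches ends at 65855447, so most of it lies outside. Peaks beside Zfand2a (209 to 386 in young against 97 to 146 in old) and Ociad2 (151 to 310 against 71 to 121) had the next lowest p without scaling. Counts beside Gm12830 and Gm12446 were also lower in every old library. As all these peaks were selected for a difference between the same libraries, p-values and separated groups are no independent support. With TMM the lower peaks nearest the threshold after Pcsk6 were those beside Zfand2a and Ociad2, at edgeR adjusted p of 0.0566 and 0.0818. Those beside Epb41l3 (44 to 86 in young, 13 to 31 in old) and Gm2324 (55 to 121 and 22 to 54) followed, at edgeR adjusted p of 0.239 and 0.448.

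Some sites gained ATAC-seq counts with age under either scaling. Beside Nek2, a mitotic kinase gene, the counts were 47, 77, 77 and 39 in young and 184, 122, 133 and 100 in old libraries. No library overlapped, and the log2 fold change was 1.73 with TMM (edgeR adjusted p 0.00129) and 1.17 without scaling (edgeR adjusted p 0.0242). Beside Gm26927, 590, 474, 546 and 556 counts in young stood against 916, 784, 958 and 840 in old libraries, again with no overlap. The fold change there was 1.29 with TMM (edgeR adjusted p 3.2e-05) and 0.69 without scaling (edgeR adjusted p 0.0119). Dact2, a modulator of TGF-β signalling, had 215, 237, 117 and 267 against 409, 362, 280 and 307. Msx2, a homeobox factor of the hair shaft lineage, had 156, 227, 273 and 206 against 317, 394, 344 and 265, where 1 old library fell within the young range. These sites too were selected for a difference between the same libraries, so their p-values and separated groups are no independent support.

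**Figure D5:**
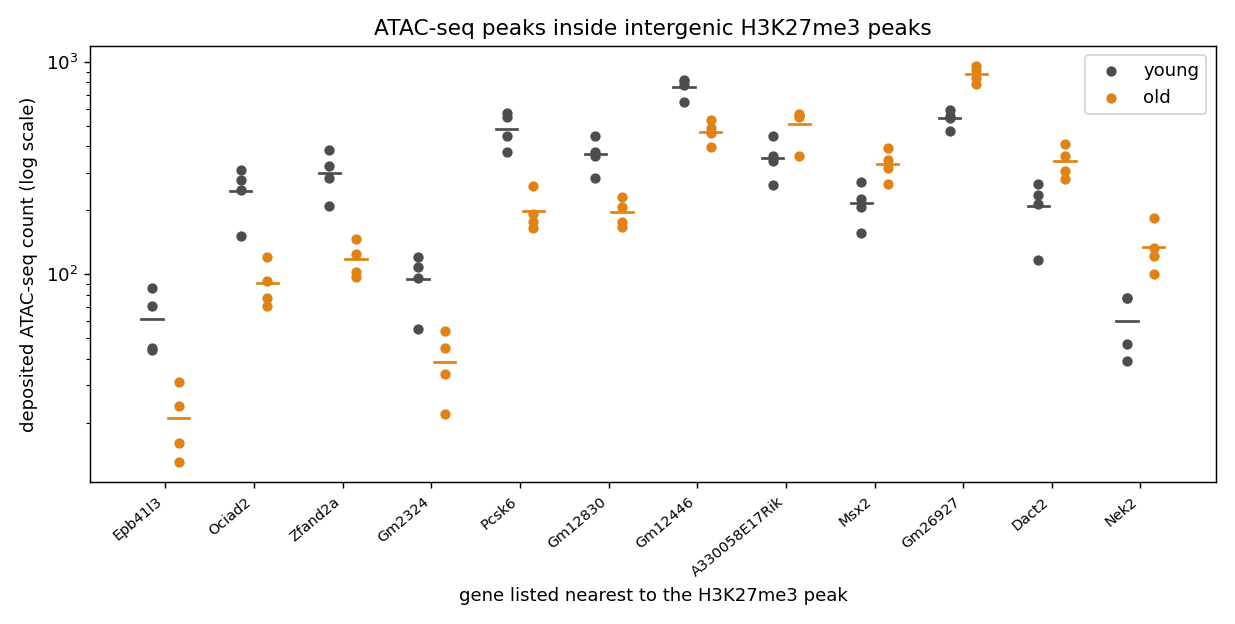
Deposited ATAC-seq counts, on a log axis, in each of 4 young and 4 old libraries for 12 peaks that overlap intergenic H3K27me3 peaks by at least 1 bp. Peaks are named by the gene listed nearest, with horizontal lines at the means. The 7 on the left were lower in every old library, and those beside Gm26927, Dact2 and Nek2 were higher in every old library, while A330058E17Rik and Msx2 overlap.

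Intergenic peaks that lost H3K27me3 overlapped ATAC-seq peaks with lower and with higher counts. The 10 intergenic peaks that were called lower and touched an ATAC-seq peak overlapped 11 of those, 9 with a lower and 2 with a higher unscaled mean count in old cells. With TMM scaling the fold changes of these 11 were 6 below and 5 above 0. Beside Satb1, a chromatin organiser of epidermis and lymphocytes, H3K27me3 fell from 7.89 to 6.41 (FDR 1.6e-05 in the authors' deposited table). An ATAC-seq peak at chr17:51653401-51654600 touches its edge. The H3K27me3 peak starts at 51654512, so most of the ATAC-seq peak lies outside. The ATAC-seq counts were 1115, 1163, 1197 and 1215 in young and 882, 963, 811 and 650 in old libraries. The unscaled groups did not overlap, and the log2 fold change was −0.50 without scaling (edgeR adjusted p 0.026). With TMM it was 0.08 (edgeR adjusted p 1.00), so the sign depended on the scaling. All listed peaks were selected for a difference between these libraries, which TMM's premise of mostly unchanged peaks does not allow for. The p-values and separated groups are thus no independent support, and the sign is not settled here. The 2 with higher counts were those beside Gm26927 (H3K27me3 from 9.10 to 8.43) and Dact2 (8.25 to 6.93). These called peaks were named after their values were seen.

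RNA could be set beside few of the called peaks. The authors' RNA table lists 597 genes with an adjusted p up to 0.1, of which 18.8% were called lower and 38.0% higher at 0.05. Among called intergenic peaks, 23, at 21 genes, had a listed gene in that table. Of the 10 lower peaks, the RNA of the listed gene was called lower for 4, higher for 1 and neither for 5. Of the 13 higher peaks, it was called lower for 2, higher for 8 and neither for 3. RNA libraries are separate samples, and most called genes of the table were higher, so these counts show no relation by themselves.

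Genes with lower RNA beside a peak that fell were Tcf24, a helix-loop-helix factor (peak 7.81 to 6.98, RNA log2 fold change −1.55 ± 0.20 (deposited SE) in the authors' deposited table), Ly6e, Smoc2 and Bahcc1. Smoc2, a gene for a calcium-binding matrix protein, had a peak that went from 6.33 to 4.76, and RNA at −0.52 ± 0.15 (deposited SE) in the authors' deposited table. Its peak, at chr17:14248003-14249396, lies next to the peak beside Dact2, at chr17:14234009-14239104, where H3K27me3 fell and ATAC-seq counts were higher. Rrm2, a ribonucleotide reductase gene, had higher RNA (0.69 in the authors' deposited table) beside a peak at the lowest level in old cells. Genes with higher RNA beside a peak that rose included the ribosomal protein genes Rpl11 and Rpl37a, Rcn2 and Mrfap1, between 0.39 and 0.58 in the authors' deposited table. The RNA genes of this paragraph were named after their values were seen.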

How the data were processed

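For ChIP-seq the submitters' processing notes name BWA 0.7.15 on GRCm38, MACS2 2.2.7.1 for peaks and DiffBind 2.14.0 for the comparison of ages. Each deposited ChIP-seq table gives, per merged peak, the authors' log2 mean normalized read count in each age, their log2 difference (young minus old, turned round here), a p-value and an FDR. Of normalization, duplicates and pooling before peak calling, nothing is stated in the sources used here. These tables hold no values per sample, so no new test could be fitted and no library left out. The lowest level of the H3K27me3 table is −0.17 in young and −0.12 in old cells. For ATAC-seq the same notes name BWA 0.7.12, and the deposited file holds whole-number counts for 4 young and 4 old libraries. The authors' selected peaks all have an absolute log2 ratio of at least 0.50 and a −log10 p-value of at least 2.00. The RNA table holds the authors' log2 fold change of old against young from DESeq2 1.22.2, with its standard error, p-value and adjusted p-value, after STAR 2.5.2b on GRCm38.p5, per the submitters' processing notes. Its mean normalized signal and its Wald score, as the authors deposited them, were not used.

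ATAC-seq counts were tested with edgeR 4.0.16 in R 4.3.3 (quasi-likelihood F-test, TMM, filterByExpr, two-sided, Benjamini-Hochberg adjustment over all 7849 peaks), and with DESeq2 1.42.0 and without scaling as alternatives. The scripts were tested on simulated data. Replicates are called biological by the series design. No pair of libraries of one age agreed within sampling noise, with a lowest chi-square per degree of freedom of 10.8. Overlaps needed 1 bp (bedtools 2.31.1). CpG counts come from the RefSeq start windows of GRCm38.p6, trimmed from 300 to the 250 upstream bases. Ensembl gene IDs were paired with symbols for the listed genes of 32045 of 32360 peaks, and 7385 genes are listed in all. Tables were handled with Python 3.11.15 and pandas 2.3.3.

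Named peaks are, in each direction, the 8 with the lowest FDR (1 per listed gene) and the 4 with the largest difference, both above the lowest level in both ages. They are joined by the 5 with the highest level, per gene list the called peak with the lowest FDR in each direction, the 5 ATAC-seq peaks with the lowest edgeR FDR in each direction under both scalings, the 4 windows of 1 Mb with most calls, and the peaks next to the width limit. Members, lists and rules were chosen with earlier results of these data known.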

Additional observations from a re-analysis of the deposited data

Results flagged for a closer look

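In the 22 ATAC-seq peaks looked at singly, 44 groups of 4 libraries were searched for a library far from the other 3 (Dixon's criterion at the 95% level). By chance about 1 in 20 groups would be found. At the peak beside Rpap3 on chromosome 15, 1 young library had 986 counts and the other 3 had 337, 405 and 412. That H3K27me3 peak was called lower in old cells on other libraries. At the peak beside A330058E17Rik on chromosome 5, 1 old library had 359 counts and the other 3 had 560, 548 and 566. The young counts there were 447, 361, 262 and 342, so the lone old library lies within the young range.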

How the results depend on the processing

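The counts of called H3K27me3 peaks moved with the FDR threshold: 161 lower and 262 higher at 0.01, and 608 and 1210 at 0.1. They stayed within 1.5 times under a minimum difference of 1, without peaks at the lowest level, with other width limits, beyond 10 kb from a start, or without peaks that overlap H3K4me3 or Pol2 (the last chosen after seeing the data). The median difference lay between 0.10 and 0.15 under 5 alternatives. Widening each peak by 1000 bp raised the overlaps to 265 for ATAC-seq and 371 for H3K4me3. Of the ATAC-seq calls, 0 lower and 15 higher with TMM became 33 and 4 without scaling, and DESeq2 called 3 lower. Leaving out 1 library in turn gave 0 to 2 lower and 13 to 15 higher with TMM, with 2 lower without young replicate 1 and 1 without young replicate 4, old replicate 3 or old replicate 4. Without scaling the range was 13 to 32 lower and 2 to 6 higher. The lower count was 17 without young replicate 3, 18 without young replicate 4, 20 without old replicate 2, 13 without old replicate 3 and 15 without old replicate 4. The higher count was 2 without young replicate 2 or old replicates 1, 2 or 3, and the cause was not tested.

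Replicate numbers did not pair the ATAC-seq libraries: the correlations of same-numbered libraries were −0.0266, −0.109, 0.0354 and −0.186. With the replicate block, edgeR called 1 lower and 15 higher with TMM, and 7 lower and 1 higher without scaling. The depth of the ChIP-seq libraries is unknown, so a peak without a call may differ by less than these libraries could show.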

Other observations

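Of 42 genes with at least 3 called intergenic peaks, 29 had only gains, 12 only losses, and Gm11689 alone had both. For comparison, 65.2% of all called intergenic peaks were higher, and the split by gene was not tested against that share. Genes with many listed peaks can reach 3 calls more easily. Vegfa, the main growth factor of blood vessels, had 4 gains and 0 losses among 31 peaks, with a median difference of 0.45 in the authors' deposited table. Nptx2, a neuronal pentraxin gene, had 4 gains among 25, Itga11, a collagen receptor gene, 3 among 16, and Tfap2c 3 among 37. On the losing side Rybp, which encodes a subunit of Polycomb repressive complex 1, had 4 among 29 and a median of −0.50 in the authors' deposited table. St3gal1, a sialyltransferase gene, had 4 among 6, Mitf 3 among 12 and Col24a1, a collagen gene, 3 among 12. These genes were chosen after their values were seen, and peaks of 1 gene lie near each other.

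Many intergenic peaks are not empty of transcripts in RefSeq. Of the 32360, 6559 (20.3%) touched a RefSeq gene interval, 4978 of them that of a long non-coding RNA and 1332 that of a protein-coding gene. Of the 394 peaks called lower 104 did so, and of the 737 called higher 145, a smaller share. The difference was not tested.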
